A study of Homo sapiens with 4 samples.

Results

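Nuclear pore and transport genes were examined in MDA-MB231 cells, an established human breast carcinoma line, after growth in medium made with field-exposed saline. The set comprised every gene-level transcript cluster of the array whose single symbol in the authors' deposited comparison sheet began as a numbered nucleoporin (NUP), karyopherin (KPNA, KPNB), importin (IPO), exportin (XPO, XPOT) or transportin (TNPO). That rule uses names and no measured value, though the set was chosen with earlier results of these data known. It gave 46 genes of 24305 symbols, each with 1 transcript cluster.

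Cells (10000 per well) spent 24 hours in standard medium with serum and then 3 days in a test medium of 9 parts hypotonic saline and 1 part concentrated DMEM. For the treated group a BEFE unit, short for Bio-Electric Field Enhancement, had acted on the saline with its dc DEP EMF over 30 minutes. The control group had the same dilution with unexposed saline, so both groups grew in saline-diluted medium. The files held 1 column of log2 signal per medium at gene level, and the labels, which count 5 biological replicates of each group when RNA integrity was checked, do not say whether a column is 1 array or a pool.

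Every value below is therefore a single measurement, and each difference is treated minus control on the log2 scale with no replicate check, no error and no p-value. The array values had been scaled with RMA (robust multi-array average), so a shift shared by most genes would not be visible. A gene counted as measured if the average of its 2 signals was 7.17 or more; this floor is the median of such averages among singly named probe sets. The floor left 42 of the 46 genes and 12353 genes in all. As a check of the line, VIM, CD44 and ANXA1, which it is known to express, were above the floor, and ESR1, PGR and CDH1 were below it in both media. EPCAM, listed as low in this line, was just above the floor, with 7.70 in control against 7.26 in treated medium. Of 10 leukocyte, endothelial and fibroblast markers found, only COL1A1 was above the floor, at 7.43 in control against 7.27 in treated medium.

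The nuclear pore is a channel through the nuclear envelope built from many copies of each nucleoporin, arranged as a scaffold of Y-shaped complexes and an inner ring, a central channel lined with phenylalanine-glycine repeats, a nuclear basket and cytoplasmic filaments. Karyopherins carry cargo through it. Importins alpha bind a nuclear localisation signal and dock on importin beta, other importins bind cargo directly, and exportins take proteins, tRNA or microRNA precursors out. The small GTPase Ran sets the direction, since its GTP-bound form, abundant in the nucleus, releases import cargo and loads export cargo. Several of these proteins also act at kinetochores and spindles once the envelope breaks down in mitosis.

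The stretches just before the transcription start are shown for NUP37, KPNA2, NUP93 and XPOT, which had the lowest difference of the Y complex, of the importins alpha and of the inner ring, and the highest of the exportins. They are the 150 bases before the most upstream RefSeq start of each gene on GRCh38.p14. Capitals mark matches on either strand to any of 5 short motifs: CCAAT (bound by NF-Y), TTTGAA (the cell cycle homology region), TTTNGCGC (an E2F site), GGGCGG (bound by SP1) and TGATGNAA (bound by ATF4 with a C/EBP partner). The motifs do not overlap one another in these stretches, apart from GGGCGG matches that share a base in NUP93. The NUP37 stretch is chr12:102120115-102120264 on the minus strand, KPNA2 is chr17:68035585-68035734 on the plus strand, NUP93 is chr16:56729979-56730128 on the plus strand and XPOT is chr12:64404242-64404391 on the plus strand.
NUP37: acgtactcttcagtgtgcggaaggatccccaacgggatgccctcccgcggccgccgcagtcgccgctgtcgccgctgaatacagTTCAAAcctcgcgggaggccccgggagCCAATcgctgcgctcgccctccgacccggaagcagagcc
KPNA2: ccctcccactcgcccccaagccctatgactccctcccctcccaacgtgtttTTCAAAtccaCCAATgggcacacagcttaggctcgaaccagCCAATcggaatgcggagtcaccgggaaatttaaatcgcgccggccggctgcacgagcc
NUP93: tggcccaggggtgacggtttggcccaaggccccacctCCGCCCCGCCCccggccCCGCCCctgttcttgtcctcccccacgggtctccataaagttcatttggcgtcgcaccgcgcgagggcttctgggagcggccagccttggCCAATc
XPOT: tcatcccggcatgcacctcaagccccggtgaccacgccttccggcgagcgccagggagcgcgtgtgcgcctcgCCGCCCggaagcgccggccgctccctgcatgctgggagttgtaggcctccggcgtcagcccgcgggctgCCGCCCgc

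NUP37 had a CCAAT beginning 39 bases before its start and a TTTGAA match, on the opposite strand, 66 bases before it. KPNA2 had a CCAAT at 89 and at 58 bases before its start and a TTTGAA match at 99. The NUP93 stretch had a CCAAT 6 bases before the start and no TTTGAA, and XPOT had GGGCGG matches on the opposite strand and none of the other motifs. RefSeq promoter windows of 250 bases before to 50 bases after a start were at hand for 51 starts of 39 of the genes. CCAAT was in 49.0% of these starts, against 34.6% of all 35116 starts in the table, TTTGAA in 23.5% against 15.2%, and TTTNGCGC in 7.84% against 1.79% (4 of the 51, belonging to IPO11, IPO7, NUP107 and NUP155). GGGCGG was in 51.0% against 45.0%, and TGATGNAA in 1 of the 51 starts, that of NUP153, against 3.62%. Both CCAAT and TTTGAA were in 7 of the 51 starts (13.7%), against 5.9% of all starts. A start with both was found for KPNA2, NUP37, NUP35, NUP98 and NUP205, and for NUP93 at another of its 3 starts. These matches describe letters in a window and do not show binding.

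In treated medium most pore and transport genes had a somewhat lower signal, and few differed much. Of the 42 genes above the floor, 34 had a difference below 0, where 50.6% of all genes above the floor did. Their median difference was -0.22 (quartiles -0.50 and -0.07), beside -0.01 over all genes (quartiles -0.26 and 0.25). Only NUP37 was at least 2-fold lower, where 3.46% of all genes were, and 0 were at least 2-fold higher, where 3.22% were. At 1.5-fold, 8 of the 42 were lower (19.0%, against 9.74% of all genes) and 2 were higher (against 9.46%). The 8 were NUP37, NUP85, NUP210, KPNA2, NUP93, NUP54, IPO9 and IPO11, and the 2 were XPOT and KPNA5. NUP54 counted as measured only through its control signal, since its treated signal of 6.97 was under the floor. With a stricter floor, at the 75th percentile of those averages, 34 members were left, 27 of them below 0, where 50.8% of all genes above that floor were. There 6 were 1.5-fold lower or more (against 11.0% of all genes) and 1 was higher (against 9.39%), while 0 passed 2-fold in either direction (against 4.25% lower and 3.14% higher). NUP37 was under this stricter floor. Less transcript per cell and fewer cells that express a gene cannot be told apart in bulk RNA. In the same columns the proliferation markers MKI67, TOP2A and PCNA had differences of -1.92, -1.36 and -2.05, and their part in these differences was not tested.

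**Figure D1:**
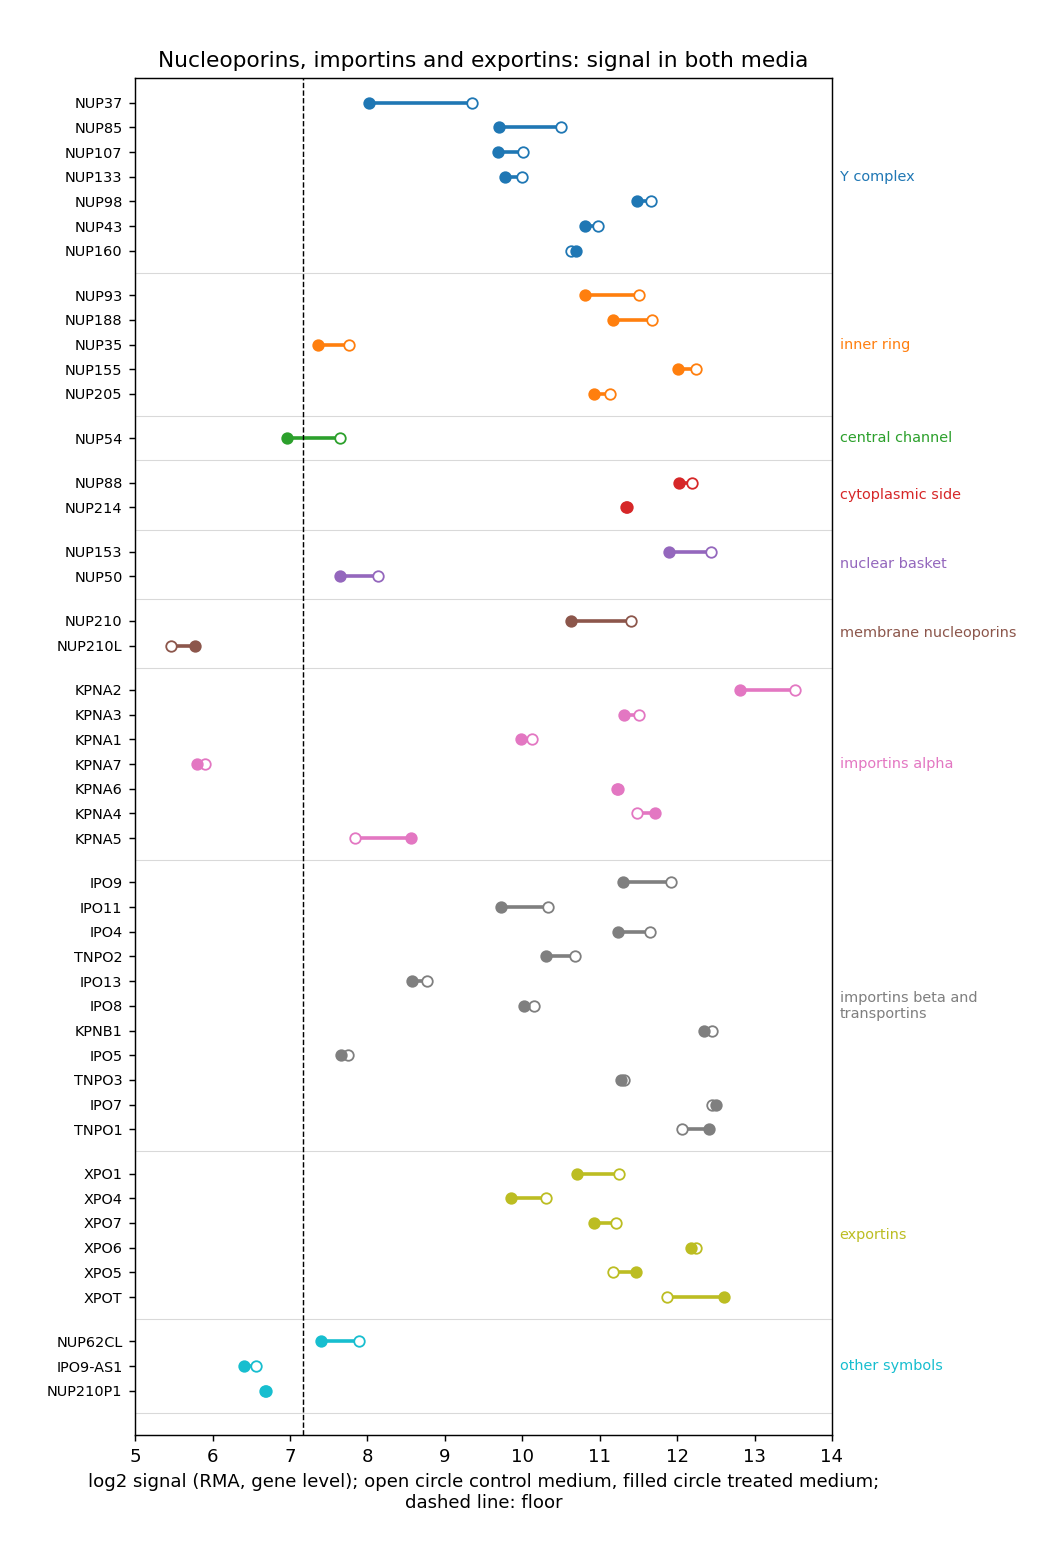
Gene-level log2 signal (x axis) of each of the 46 genes in control medium (open circles) and treated medium (filled circles), 1 value per medium, grouped by place in the pore or by carrier class; the dashed line is the floor of 7.17. NUP37 has the longest line to the left, from 9.35 to 8.02, and XPOT and KPNA5 have the longest lines to the right.

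**Figure D2:**
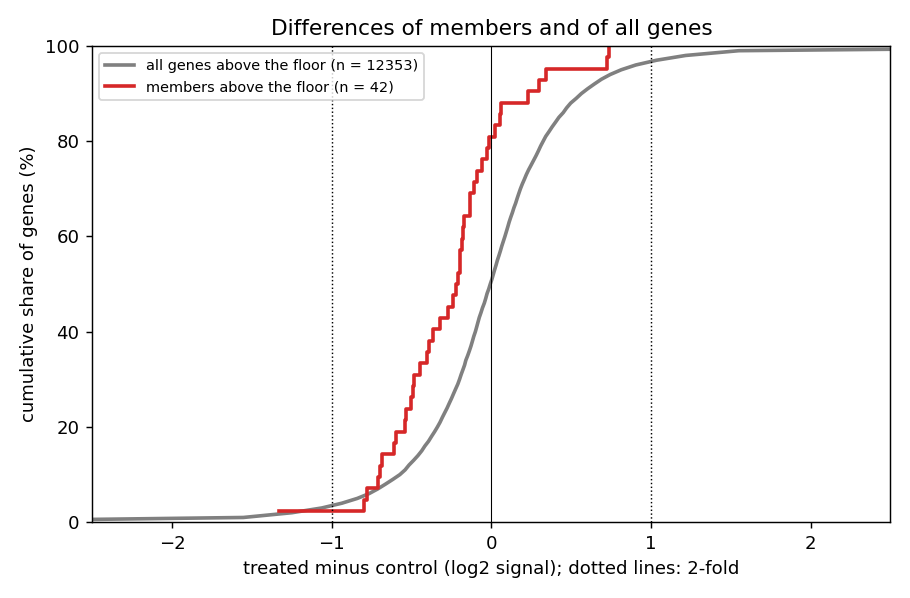
Cumulative share of genes (y axis, percent) by treated minus control difference on the log2 scale (x axis), for the 42 genes above the floor (red) and all 12353 genes above it (grey, drawn from its percentiles). From about -0.7 upward the red line runs above the grey one; the dotted lines mark 2-fold.

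Among nucleoporins, 17 of the 19 above the floor were below 0 (89.5%, against 50.6% of all genes), with a median of -0.39. Of the 19, 1 was at least 2-fold lower (against 3.46%). At least 1.5-fold lower were 5, NUP54 among them (26.3%, against 9.74%). Among karyopherins, 17 of 23 were below 0 (against 50.6% of all genes), with a median of -0.13. Past 2-fold were 0 in either direction (against 3.46% lower and 3.22% higher). At 1.5-fold, 3 of the 23 were lower (against 9.74% of all genes) and 2 were higher (against 9.46%). These 1.5-fold counts of karyopherins were thus near the shares of all genes. The difference between the classes was not tested.

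The Y complex, the outer scaffold, is also recruited to kinetochores. Of its 7 measured members, 6 were below 0 (85.7%, against 50.6% of all genes above the floor), with a median of -0.22. NUP37, one of its short propeller subunits, had a signal of 9.35 in control against 8.02 in treated medium, a difference of -1.33 or 2.51-fold lower (transcript cluster 16769227). The authors' deposited control over treated ratio, 2.51, matches these same signals and is no second measurement. NUP85, a subunit of a short arm, had 10.50 in control against 9.70 in treated medium and was 1.74-fold lower. The other 5 Y complex genes of the set lay between -0.32 and 0.06. NUP107, a stem subunit, had a difference of -0.32, and its partner NUP133 had -0.22. NUP98, made as a precursor with the scaffold protein Nup96, had -0.19, NUP43 had -0.18, and NUP160 had 0.06, with signals of 10.64 in control against 10.69 in treated medium. The 7 differences thus ranged from -1.33 to 0.06, and whether these subunits differ from each other was not tested. SEH1L and SEC13, Y complex subunits under other names, had -0.33 and -0.37.

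All 5 inner ring genes were below 0 (against 50.6% of all genes above the floor), with a median of -0.39. NUP93, which anchors the ring, had signals of 11.51 in control against 10.81 in treated medium and was 1.62-fold lower. NUP188, 1 of its large alternative partners, had a difference of -0.50, and the other, NUP205, had -0.21. NUP155, which links the ring to the membrane, had -0.24, with signals of 12.25 and 12.01. NUP35, a membrane-binding ring subunit, had -0.39, and its signals of 7.76 and 7.37 were close to the floor.

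At the central channel, NUP54, a phenylalanine-glycine nucleoporin, had 7.65 in control against 6.97 in treated medium, 1.61-fold lower. Its treated signal was under the floor, and its control signal was 0.48 above it, so the size of the difference is uncertain. NUPL1, the older name of the channel nucleoporin NUP58, had -0.13. NUP62 was not analysed here. In the nuclear basket, NUP153, which binds importin beta and the lamina, had signals of 12.44 in control against 11.90 in treated medium, a difference of -0.54. NUP50, a mobile basket protein that helps to release importin alpha cargo, had -0.49, with 8.13 and 7.64. TPR, the basket filament protein, had -0.15.

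On the cytoplasmic side the differences lay on both sides of 0. NUP88 had -0.17, and its partner NUP214, a docking site for XPO1, had 0.02, with signals of 11.33 in control against 11.36 in treated medium. RANBP2, the large filament protein that holds SUMO-modified RanGAP, had 0.21, and RAE1, an mRNA export factor bound to NUP98, had 0.16. NUPL2, the older name of NUP42, had 0.04. GLE1, which activates the mRNA export helicase, had -0.44, and AAAS had -0.52.

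Measured membrane nucleoporins had lower signals in treated medium. NUP210, a transmembrane nucleoporin known for its part in muscle differentiation of mouse cells, had 11.40 in control against 10.63 in treated medium, 1.71-fold lower. NDC1, which anchors the pore in the membrane, had 11.57 and 10.83, 1.67-fold lower. POM121 had -0.38, and its near-identical paralog POM121C had -0.38 as well, which the array may not separate. NUP210L, a paralog of NUP210, had signals of 5.47 and 5.77 and was below the floor in both media, as was the pseudogene NUP210P1, at 6.68 and 6.69. The means of NUP54 and NUP210P1 were the closest to the floor from above and from below, at 7.31 and 6.69.

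The 7 importins alpha, adaptors for classical nuclear localisation signals, went both ways. KPNA2 had 13.52 in control against 12.81 in treated medium and was 1.64-fold lower (transcript cluster 16837270). KPNA5 had 7.84 in control against 8.56 in treated medium and was 1.65-fold higher (transcript cluster 17011992). The control signal of KPNA5 was only 0.66 above the floor, so the size of its difference is uncertain. KPNA1 and KPNA6, which belong to the same subfamily as KPNA5, had -0.14 and -0.01. KPNA3 and KPNA4, another closely related pair, had -0.20 and 0.23, KPNA4 with 11.48 in control against 11.71 in treated medium. KPNA7, the nearest relative of KPNA2 and known from oocytes and early embryos, was below the floor in both media, at 5.90 and 5.80. The median over the 6 measured importins alpha was -0.07, so KPNA2 and KPNA5 lay far to either side of it.

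KPNB1, importin beta itself and the partner of every importin alpha, had 12.45 in control against 12.35 in treated medium, a difference of -0.11. Of the 11 importins beta and transportins, 9 were below 0 (81.8%, against 50.6% of all genes above the floor), with a median of -0.13. IPO9, a carrier of histones H2A and H2B, had 11.92 in control against 11.31 in treated medium and was 1.53-fold lower. IPO11, which imports ubiquitin-conjugating enzymes, had 10.33 and 9.73 and was 1.51-fold lower. Both lay just past 1.5-fold, and IPO11 was under it with each of 3 other scalings (-0.58 to -0.57). IPO4, a carrier of histones H3 and H4, had -0.41. IPO5, another histone and ribosomal protein carrier, had -0.09 at signals of 7.75 and 7.66, and IPO7, which imports ribosomal proteins and histone H1, had 0.05. RANBP6, a close relative of IPO5 under another name, had 9.87 in control against 8.77 in treated medium and was 2.14-fold lower.

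Transportins, which carry RNA-binding proteins, also differed from each other. TNPO1, which imports hnRNP proteins with a proline-tyrosine signal, had 12.07 in control against 12.41 in treated medium, a difference of 0.34. Its close paralog TNPO2 had 10.67 and 10.31, a difference of -0.36. TNPO3, the carrier of serine-arginine splicing factors, had -0.03. IPO8, which binds Argonaute and SMAD proteins, and IPO13, which works in both directions, had -0.13 and -0.20.

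Of the 6 exportins, XPOT and XPO5 were above 0 and the other 4 were below it (66.7%, against 50.6% of all genes). XPOT, the exportin for tRNA, had 11.87 in control against 12.60 in treated medium, a difference of 0.74 or 1.67-fold higher (transcript cluster 16753465). XPO5, which exports microRNA precursors, had 11.17 and 11.47, a difference of 0.30. XPO1, also named CRM1, the main exportin for proteins with a leucine-rich signal, had 11.25 and 10.71, a difference of -0.54. XPO4 had -0.45 and XPO7 -0.27. XPO6, which exports actin with profilin, had -0.06. CSE1L, the exportin that returns importin alpha to the cytoplasm, had 13.14 in control against 12.48 in treated medium and was 1.58-fold lower. KPNA2 and CSE1L, a cargo and its carrier, thus had differences of -0.71 and -0.66.

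NUP62CL, a relative of NUP62, had 7.89 in control against 7.41 in treated medium, and the antisense RNA gene IPO9-AS1 was below the floor, at 6.56 and 6.40. The genes closest to 0 above the floor were KPNA6 (-0.01), NUP214 (0.02) and TNPO3 (-0.03).

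The Ran cycle and related carriers had a median of -0.39. Below 0 were 9 of 10 measured genes (against 50.6% of all genes above the floor). Of the 10, 1 was at least 2-fold lower (against 3.46%) and 4, RANBP1 among them, were at least 1.5-fold lower (against 9.74%). After RANBP6, RANBP1, which assists RanGAP, had 7.89 in control against 7.13 in treated medium, the latter just under the floor. RCC1, the chromatin-bound exchange factor that loads Ran with GTP, had 10.38 and 9.74 and was 1.56-fold lower. RAN itself had -0.36 and RANGAP1, the GTPase activator, -0.26. NUTF2, which brings Ran back into the nucleus, had -0.42 with a treated signal of 7.08, under the floor.

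Of 13 pore proteins with other symbols, 10 were below 0 (76.9%, against 50.6% of all genes above the floor), with a median of -0.33. NDC1 was the 1 at least 1.5-fold lower (7.69%, against 9.74% of all genes). In this list 0 passed 2-fold (against 3.46% lower and 3.22% higher). Of 15 mRNA export genes, 11 were below 0 (73.3%, against 50.6% of all genes), with a median of -0.21. At least 1.5-fold lower were 4 of the 15 (26.7%, against 9.74% of all genes). THOC3, a subunit of the THO complex that couples transcription to export, had 9.52 in control against 8.48 in treated medium and was 2.06-fold lower. The export adaptor ALYREF was 1.94-fold lower, the helicase DDX39A 1.80-fold and the THO subunit THOC1 1.60-fold. NXF1 and NXT1, the receptor that carries mRNA through the pore, had -0.09 and -0.01. Above 0 were 4 of the 15, among them DDX19B at 0.55, THOC5 at 0.38 and THOC2 at 0.04. At least 1.5-fold higher were 0 of the 15 (against 9.46% of all genes).

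The nuclear lamina and envelope, the surface in which pores sit, held the largest differences among these lists. All 10 measured genes were below 0 (against 50.6% of all genes above the floor), with a median of -0.42, and 3 were at least 2-fold lower (against 3.46%). LMNB1, which encodes lamin B1, had 10.06 in control against 7.91 in treated medium and was 4.43-fold lower. TMPO, the lamina-associated polypeptide gene, had 10.37 and 8.79 and was 2.98-fold lower. LBR, the lamin B receptor and a sterol reductase, had 10.33 and 9.09 and was 2.36-fold lower, and LMNB2 was 1.63-fold lower. LMNA, the A-type lamin gene, had -0.32, and BANF1, which bridges DNA and envelope, had -0.09. Only NUP37 among the 42 pore and transport genes was past the difference of LBR. Whether any of these lists differs from the others was not tested.

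**Figure D3:**
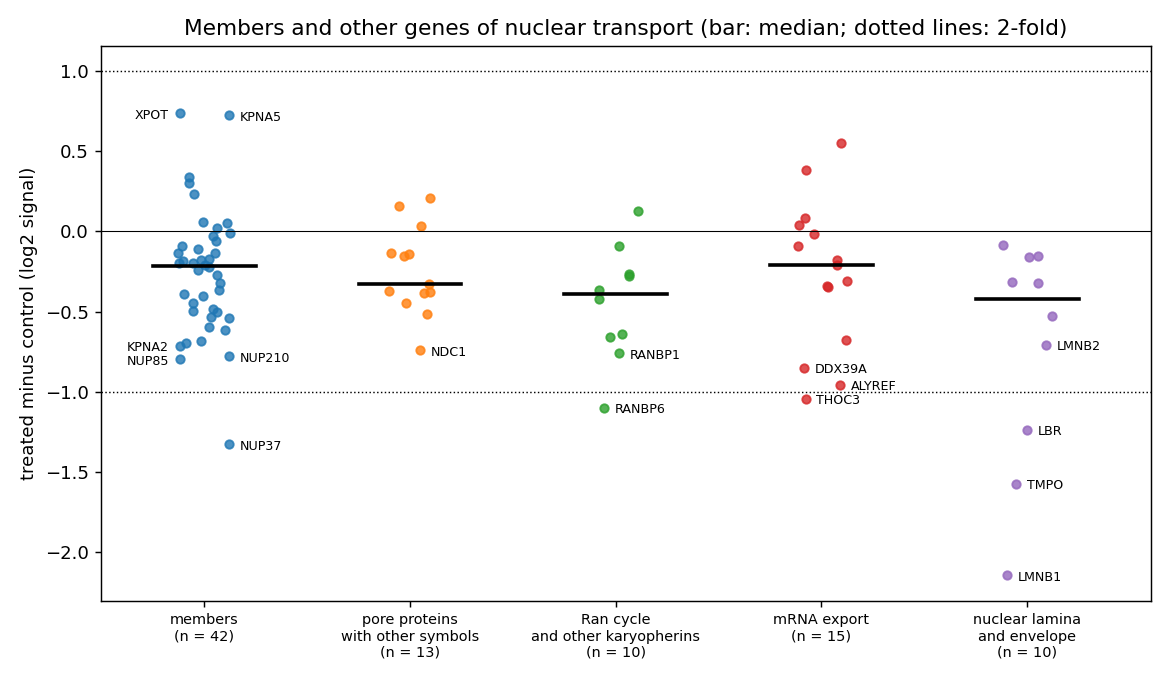
Treated minus control difference on the log2 scale (y axis) for each gene above the floor, in the 42 nucleoporin and karyopherin genes (members) and 4 lists of related genes (x axis); 1 point per gene, horizontal bars are medians, dotted lines mark 2-fold and genes at 0.7 or further from 0 are named. All 5 medians lie below 0, and LMNB1, TMPO and LBR lie below every point of the other lists except NUP37.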

How the data were processed

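Log2 signal per transcript cluster, at gene level and at exon level, was deposited by the authors after normalization for which the submitters' processing notes name RMA and Affymetrix Expression Console; versions, genome build and annotation are not given in the sources used here. The authors' deposited comparison sheet holds a control over treated ratio and supplied all gene symbols. Its ratios, on the log2 scale, matched the log2 differences to within 9.85e-05. The 5391 probe sets in both tables had equal values, so exon-level columns were never used as replicates; no table given here names exon-level probe sets.

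The members and gene lists were chosen with earlier results of these data known. Genes were named by rule: every member, all values given where the difference was at least 1.5-fold, and list genes mainly at 1.5-fold; list genes under it (among them RAN, NUTF2, SEH1L and LMNA), MKI67, TOP2A and PCNA were picked after their values were seen. With 1 column per medium no test was possible, and for arrays their number limits precision. All 46 genes matched RefSeq GRCh38.p14, 41 by accession and 5 by symbol. Alternatives changed the floor, the scaling, the transcript cluster and the membership. Scripts ran in Python 3.11.15 with pandas 2.3.3 and were tested on simulated data.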

Additional observations from a re-analysis of the deposited data

How the results depend on the processing

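The median difference of the genes above the floor stayed between -0.22 and -0.19 without a floor, with a floor at the 75th percentile, under 3 other scalings (columns centred on the median or on the 75th percentile, quantile normalization), without NUP37, and without NUP62CL and the 3 pseudogene, antisense and paralog symbols below the floor. With the floor at the 75th percentile, 34 genes were left; 0 of these were at least 2-fold lower, since NUP37 fell out, and 1 was at least 1.5-fold higher, since KPNA5 did. There 27 of 34 were below 0, against 50.8% of all genes above that floor. Of 42 genes, 32 or 33 were below 0 and 7 at least 1.5-fold lower under the other scalings. TNPO3 and KPNA6 moved to just above 0 (0.00 and 0.01) in at least 1 of these scalings. These counts of genes below 0 and past 1.5-fold were alternatives added after seeing the data. Every member had 1 transcript cluster, so choosing another could not change a value. The exon-level alternative was not run. No paired analysis was possible because each group has 1 column. With no replicates, differences as small as most of these cannot be separated from variation between cultures or arrays.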

Other observations

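Several pore and transport genes start near a gene read in the opposite direction. In the RefSeq table, 5 members above the floor had an opposite-strand neighbour, also above it, whose start lay within 1000 bases upstream. NUP37 and PARPBP, a regulator of homologous recombination, start 69 bases apart, and PARPBP had signals of 9.30 in control against 8.43 in treated medium, a difference of -0.87 beside -1.33 for NUP37. NUP188 and DOLK, a dolichol kinase gene, start 96 bases apart and had -0.50 and -0.32. NUP98 and PGAP2, a GPI anchor remodelling gene, start 166 bases apart and had -0.19 and -0.44. In the other 2 pairs the signs were opposite. XPO5 and POLH, the translesion polymerase eta gene, start 147 bases apart and had 0.30 and -0.67, with POLH at 10.19 in control against 9.52 in treated medium. NUP88 and RPAIN, which encodes an import factor for replication protein A, start 520 bases apart and had -0.17 and 0.36. How often such pairs among all genes share a sign was not tested.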
